A study of Gossypium hirsutum with 6 samples.

Results

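Gene expression in the A and D subgenomes of upland cotton (Gossypium hirsutum) was compared within green wild-type leaves, in 3 RNA sequencing libraries of the first true leaf. The study holds 6 libraries, and the 3 others, from virescent plants with pale young leaves, gave none of the expression values below. The wild-type genotype is labelled msmsv1v1 and the virescent one MSmsv1v1, so both are written with the same v1 alleles and differ in the MS symbol. The labels number the libraries within a genotype, and nothing in them says whether they came from separate plants. The spread between libraries may therefore be technical, and the p-values measure that spread alone. Genes were placed by their identifiers, which carry a chromosome label from A01 to A13 or from D01 to D13. Such a label was carried by 57913 of the 65126 listed genes, 28152 with an A and 29761 with a D. A whole leaf is a mixture of cell types, and in such samples fewer cells of a type and less RNA per cell cannot be told apart.

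Upland cotton is an allotetraploid, a species that arose when an A genome, close to that of the diploid cottons of Africa and Asia, and a D genome, close to that of American diploid cottons, came together in one nucleus. Most genes therefore exist as an A copy and a D copy, called homoeologues, and chromosomes of the same number in the subgenomes largely carry the same genes. The A subgenome is known to have exchanged segments between its chromosomes 2 and 3 and between its chromosomes 4 and 5, so these numbers do not match as simply as the others. The table does not pair A with D copies and gives no gene names, and 0 of the 65126 identifiers matched the RefSeq table used here. The comparison is therefore one of whole subgenomes and chromosomes, not of gene against gene. Markers of leaf cell types could not be looked up for the same reason.

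Values were FPKM, fragments per 1000 bases of transcript and per 1000000 mapped fragments, and summed to 1019041, 1039598 and 1048966 in wild type 1, 2 and 3. Genes on scaffolds and genes with the prefix BGI_novel made up the remainder beside the A and D labels. They held 0.99% ± 0.03 and 3.55% ± 0.19 of the summed FPKM (SD, n = 3). Genes with that prefix reached FPKM 1 in 75.3% of cases in wild type 2, against 62.4% in wild type 1 and 61.8% in wild type 3. Among A genes with a mean FPKM of at least 1, log2(FPKM + 1) correlated at 0.978 between wild type 1 and 3, and at 0.969 and 0.961 between wild type 2 and these, a correlation across genes. Among D genes the same correlations were 0.977, 0.968 and 0.963.

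Among genes with an A or D label, D held slightly more of the leaf messenger RNA than A, and it did so with more genes. The D lead was 2.08 ± 0.17 percentage points of the whole library (SD, n = 3). That is less than the 3.55% held by genes with the prefix BGI_novel, which carry no such label. The order therefore holds for the labelled genes only. Of the FPKM placed on A and D labels, D held 51.1%, 51.0% and 51.2% in wild type 1, 2 and 3, a mean of 51.1% ± 0.09 (SD, n = 3). All 3 libraries lay on the same side of an even split and within 0.2 percentage points of each other. The D to A ratio of the summed FPKM was 1.04 ± 0.004 (SD, n = 3), while the ratio of the number of listed genes was 1.06, with D at 51.4% of the listed genes. Per listed gene the order was the opposite. The mean was 17.2 ± 0.2 FPKM for A and 17.0 ± 0.2 FPKM for D (SD, n = 3), and the D minus A difference ran from -0.262 to -0.144 FPKM over the libraries. The median gene stood at 2.82 ± 0.02 FPKM in A and at 2.68 ± 0.03 FPKM in D (SD, n = 3), again higher in A in 3 of 3 libraries. An exact two-sided permutation test that exchanges A and D within libraries gave p = 0.25 for the share of the sum, the mean and the median, the smallest p that this test can give with 3 libraries, so it cannot pass a threshold of 0.05.

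Counts of expressed genes followed the same pattern, with more genes in D and a larger expressed fraction in A. FPKM 1 was reached by 18403, 18659 and 18545 A genes and by 19121, 19310 and 19267 D genes in wild type 1, 2 and 3. The D count exceeded the A count by 697 ± 40 genes (SD, n = 3), yet as a percentage of the listed genes A stood at 65.8% ± 0.5 and D at 64.6% ± 0.3 (SD, n = 3). Within libraries, the D minus A difference of the fraction ran from -1.40 to -1.12 percentage points. At FPKM 10 there were 6373, 6415 and 6491 A genes against 6580, 6570 and 6742 D genes, or 22.8% ± 0.2 of A and 22.3% ± 0.3 of D (SD, n = 3). At FPKM 100 there were 569, 572 and 593 A genes against 586, 588 and 603 D genes, or 2.05% ± 0.05 and 1.99% ± 0.03 (SD, n = 3). At these thresholds too, D had more genes and A the higher fraction in each of the 3 libraries. The exact two-sided permutation p was 0.25 for each of the 3 thresholds, the smallest possible. Among the genes at FPKM 1000 or more, A had 43, 47 and 45 and D had 46, 47 and 50, and in wild type 2 the counts were equal.

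**Figure D1:**
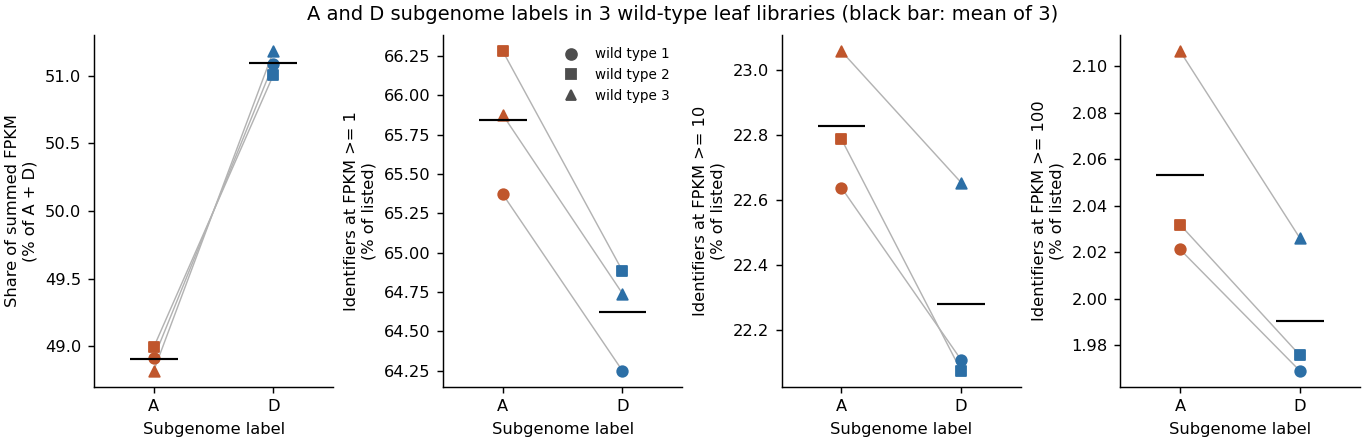
Share of the summed FPKM (percent of A plus D) and percentage of listed genes at FPKM 1, 10 and 100 or more, for the A and D labels. Points are the 3 wild-type libraries, a grey line joins the values of 1 library, the black bar is the mean, and the axes do not start at 0. The D label is higher in the share of the sum in 3 of 3 libraries and lower in each of the 3 percentages.

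Among expressed genes the subgenomes could hardly be told apart in level. Genes at FPKM 1 or more had a median of 6.14 ± 0.07 FPKM in A and 6.12 ± 0.03 FPKM in D (SD, n = 3), a difference whose sign varied between libraries (exact two-sided permutation p = 0.50). Their 10th percentile was 1.65 FPKM in both subgenomes, and their 90th percentile was 36.5 ± 1.1 FPKM in A and 36.6 ± 0.8 FPKM in D (SD, n = 3). Over all listed genes, the mean of log2(FPKM + 1) was 2.16 ± 0.01 in A and 2.12 ± 0.01 in D (SD, n = 3), and the D minus A difference ran from -0.041 to -0.035 over the libraries. Restricted to genes with a mean FPKM of at least 1, the difference was -0.0033 ± 0.0051 (SD, n = 3), less than the spread between libraries (exact two-sided permutation p = 0.50).

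The share of D genes fell from the lowest abundance classes to the middle ones. D accounted for 52.7% ± 0.03 of the A and D genes listed at 0 in a library, and for 52.1% ± 0.2 of those above 0 but below FPKM 1 (SD, n = 3). It accounted for 51.0% ± 0.04 from FPKM 1 to below 10, 50.8% ± 0.2 from 10 to below 100, and 50.5% ± 0.3 from 100 to below 1000 (SD, n = 3). In every library the classes listed at 0 and below FPKM 1 lay above the 51.4% of D among all listed genes, and the 3 classes from FPKM 1 to below 1000 lay below it. At FPKM 1000 or more the share of D genes was 51.7% in wild type 1 and 52.6% in wild type 3, and the counts were equal in wild type 2, a spread that covers the values of the classes from FPKM 1 to below 1000. Of the summed FPKM, D held between 50.8% and 51.9% in each library in every class from FPKM 1 upward.

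**Figure D2:**
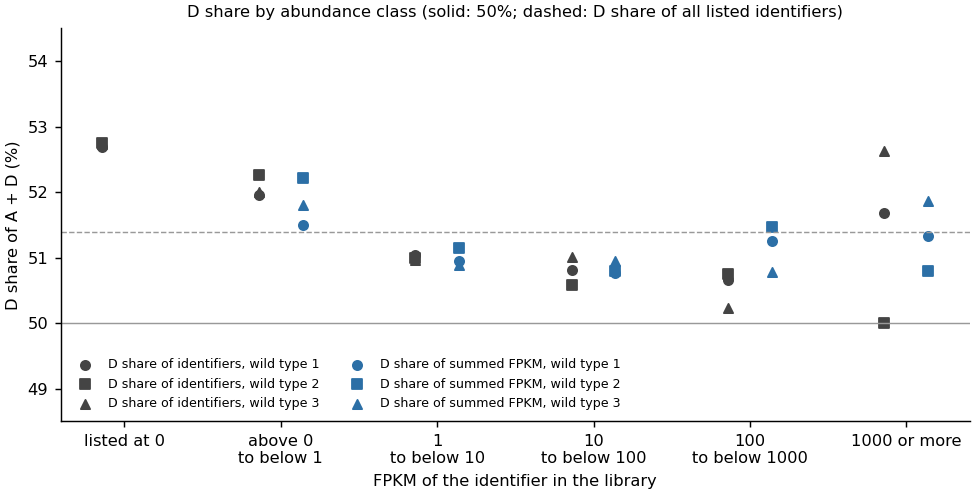
D share (percent of A plus D) of the genes, in dark grey, and of the summed FPKM, in blue, within 6 classes of FPKM, in each of the 3 wild-type libraries. The solid line marks an even split and the dashed line the 51.4% of D among all listed genes, and the axis does not start at 0. The share of D genes is 52.7% among genes listed at 0 and 50.5% from FPKM 100 to below 1000.

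Both subgenomes concentrated their RNA in few genes, to a similar degree. The 10 most abundant genes held 19.0% ± 0.5 of the A sum and 18.9% ± 0.5 of the D sum, and the 100 most abundant held 38.1% ± 0.5 and 37.8% ± 0.4 (SD, n = 3). Counted from the most abundant gene down, 50% of the sum was reached with 336 ± 16 genes in A and 329 ± 10 in D (SD, n = 3). Of the 10 most abundant genes of a library, A carried 5, 4 and 4 in wild type 1, 2 and 3, and D carried the remainder. Of the 100 most abundant, A carried 47, 48 and 45 and D carried 50, 49 and 51.

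The most abundant A gene, Gh_A07G2172 on label A07, stood at 27104, 24791 and 24809 FPKM in wild type 1, 2 and 3 and made up 5.29% ± 0.34 of the A sum (SD, n = 3). The most abundant D gene, Gh_D11G1671 on D11, stood at 23832, 20012 and 23307 FPKM and made up 4.43% ± 0.42 of the D sum (SD, n = 3). By the mean over libraries, the next on each side were Gh_D07G1759 on D07, at 18137, 16675 and 15536 FPKM, and Gh_A05G1261 on A05, at 14240, 16018 and 15430 FPKM. Each of these genes carried between 21.0% and 39.5% of the FPKM of its whole chromosome label, so single genes weighed heavily on the sums that follow. The files pair none of them with a name.

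By chromosome number, the balance between D and A was far less even than over the whole subgenomes. The log2 ratio of D to A summed FPKM was taken within each library for the 13 numbers and tested with limma, with Benjamini-Hochberg adjustment over the 13 pairs. In 11 of the 13 pairs (84.6%) the ratio differed from an even balance at an adjusted p under 0.05. D was higher in 7 of these pairs and A in 4. The D label also listed more genes in 10 of the 13 numbers, and the sums are not adjusted for the number of genes. The ratios ran from 0.620 to 1.61, and their median size on the log2 scale was 0.17, against a median SD between libraries of 0.019. D was higher in all 3 libraries in 7 pairs, A in all 3 in 4 pairs, and only the pairs 05 and 12 changed side between libraries. With numbers 02 and 03 as 1 pool and 04 and 05 as another, 8 of 11 comparisons passed, 5 with D and 3 with A higher. Their log2 ratios then ran from -0.17 to 0.33. These p-values speak of the same genes measured again in other libraries and would be small for any fixed set of genes with a steady difference.

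The highest ratio was that of number 02. A02 summed to 19313, 19945 and 20048 FPKM and D02 to 31407, 31463 and 32440 FPKM in wild type 1, 2 and 3, a ratio of 1.61 (log2 0.68 ± 0.01 SE, limma adjusted p = 6.9e-10). The lowest was that of number 03, the mirror image. A03 summed to 29886, 30396 and 31789 FPKM and D03 to 18659, 19062 and 19377 FPKM, a ratio of 0.620 (log2 -0.69 ± 0.01 SE, limma adjusted p = 6.9e-10). In both pairs the groups of 3 values lay far apart. Numbers 02 and 03 are among those with exchanged segments in the A subgenome. As 1 pool, the 02 and 03 labels summed to 50459 FPKM in A and 50803 FPKM in D, a log2 ratio of 0.010 that missed the threshold (limma adjusted p = 0.366). Compared crosswise, a comparison chosen after these values were seen, D02 over A03 gave a ratio of 1.04 and D03 over A02 a ratio of 0.963, with limma adjusted p of 0.0038 and 0.0010. The number of listed genes was 1607 on A02 and 1610 on D03, and 1959 on A03 and 2150 on D02. The pair 04 and 05, also with exchanged segments, had ratios of 1.07 and 0.995 by number and a ratio of 1.01 when pooled (log2 0.018, limma adjusted p = 0.149).

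Next in order were number 11, with D higher by a ratio of 1.26 (log2 0.33 ± 0.02 SE, limma adjusted p = 5.1e-07), and number 06, at 1.25 (log2 0.32 ± 0.01 SE, limma adjusted p = 3.1e-08). D11 summed to 71521, 68134 and 72193 FPKM against 55794, 55993 and 56234 FPKM for A11. For number 06 the sums were 30914 ± 632 FPKM on D06 and 24752 ± 677 FPKM on A06 (SD, n = 3). On the A side the order continued with number 09, at a ratio of 0.886 (log2 -0.17 ± 0.01 SE, limma adjusted p = 8.9e-07), and number 07, at 0.901 (log2 -0.15 ± 0.01 SE, limma adjusted p = 1.8e-06). A07 summed to 65056, 65412 and 63886 FPKM and D07 to 58399, 59054 and 57574 FPKM. For number 09 the sums were 29481 ± 84 FPKM on A09 and 26114 ± 41 FPKM on D09 (SD, n = 3). The A and D values did not overlap in any of these pairs, but among all 13 numbers they overlapped only in 05 and 12. In FPKM, D exceeded A by 45713 over the 8 numbers where its mean was higher, and the difference was -24118 over the other 5, which leaves the D excess of 21594 FPKM. The D excess on number 11 was 14609 ± 2141 FPKM (SD, n = 3) and that on number 02 was 12001 ± 445 FPKM (SD, n = 3).

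Several of these balances were carried by a few very abundant genes. In at least 1 wild-type library 49 A genes and 52 D genes reached FPKM 1000, and they held 31.3% ± 0.4 of the A sum and 31.6% ± 0.3 of the D sum (SD, n = 3). Without them number 07 turned from A to D, with a log2 ratio of 0.11, number 10 from A (-0.08) to D (0.03), and number 11 from D to A, at -0.02. Numbers 02 and 03 kept their sides at 0.43 and -0.48, number 06 at 0.27, and number 09 moved from -0.17 to -0.03 on its side. The median size of the log2 ratio was then 0.11, and D was higher in all 3 libraries in 9 pairs and A in 4. All 13 pairs passed the threshold without these genes, number 11 with a limma adjusted p of 0.0463. In that fit limma gave every pair the same error, pooled over the 13. When only the most abundant gene of each label was left out, number 07 turned to 0.08, number 10 lost its call at -0.01 and number 11 fell to 0.09.

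**Figure D3:**
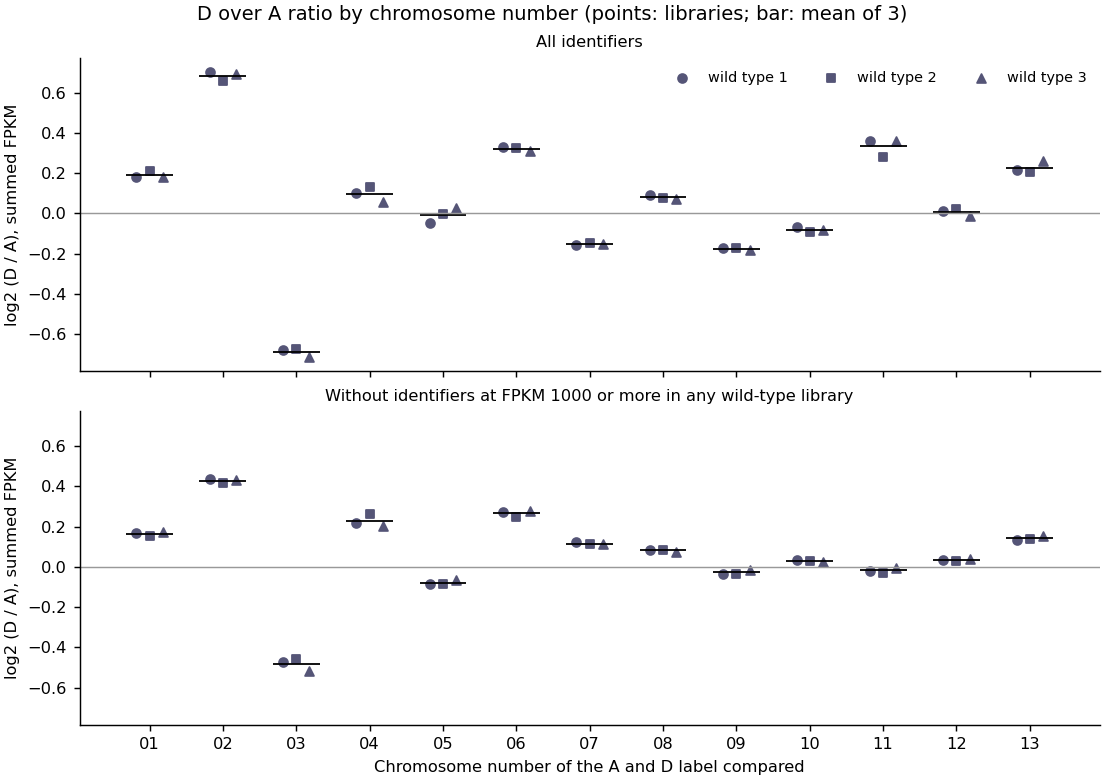
Log2 ratio of D to A summed FPKM for the 13 chromosome numbers, with all genes (top) and without the genes at FPKM 1000 or more in any wild-type library (bottom). Points are the 3 libraries and bars their means. Numbers 02 and 03 mirror each other at 0.68 and -0.69, and numbers 07, 10 and 11 change sides between the panels.

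Mean FPKM per listed gene ranged from 10.8 to 31.0 between chromosome labels. A07 was highest at 31.1, 31.3 and 30.6 FPKM per listed gene, followed by D07 at 26.8, 27.1 and 26.4 FPKM and D11 at 23.2, 22.1 and 23.4 FPKM. Lowest by the mean were D12 at 10.7, 10.7 and 11.1 FPKM, A12 at 10.9, 10.9 and 11.5 FPKM and D03 at 11.6, 11.8 and 12.0 FPKM. In this order of 26 labels, 15 of the 25 neighbouring pairs overlapped between libraries, so neighbours could often not be ranked, while the 3 highest labels were the same in all 3 libraries. Label means varied by an SD of 4.93 FPKM, against a median SD between libraries of 0.34 FPKM. The median gene gave another order of the 26 labels. A03 and A08 were then highest, at 3.12 and 3.07 FPKM. D11 stood at rank 25 with 2.51 FPKM, and D12 at rank 10 with 2.80 FPKM. By the mean, A and D labels of the same number tended to stand high or low together. Over the 13 numbers, Pearson's r was 0.864 and Spearman's rho 0.665. These fell to 0.625 and 0.593 when each gene was capped at FPKM 1000. The values describe labels that share libraries and, as homoeologues, largely the same genes. That sharing is less simple for the numbers with exchanged segments in the A subgenome. With each gene capped at FPKM 1000, A07 and D07 had the highest means at 16.8 and 16.7 FPKM but overlapped with A04, which was highest in wild type 3 at 16.9 FPKM. The range over labels then lay between 10.7 and 16.8 FPKM. In 7 labels, 3 on A and 4 on D, the most abundant gene held 20% or more of the label's FPKM, as it did with 39.5% on A07, 35.5% on A10, 32.5% on D10, 31.7% on D11, and 28.8% on D07.

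Per listed gene, 12 of the 13 pairs (92.3%) differed at a limma adjusted p under 0.05, with D higher in 6 and A in 6. However, number 12 lost its call without wild type 1 (limma adjusted p = 0.085) or without wild type 3 (limma adjusted p = 0.147). In these fits, unlike the main one, limma gave every pair the same error. The largest difference was again that of number 03, where the D label was at 0.755 of the A label (log2 -0.41 ± 0.01 SE, limma adjusted p = 4.9e-08). It was followed by number 04, at 0.766 (log2 -0.38 ± 0.02 SE, limma adjusted p = 2.0e-07), although D04 had the higher sum. A04 carried the fewest listed genes of all labels, 1265 against 1766 on D04, at 17.8, 18.1 and 18.9 FPKM per gene against 13.7, 14.2 and 14.1 FPKM. On the D side number 02 led at a log2 ratio of 0.26 and number 11 followed at 0.25, with limma adjusted p of 3.6e-07 and 1.8e-06. These are ratios of means, and in numbers 02 and 11 the median gene was lower on D. The medians were 2.71 FPKM on A02 and 2.60 FPKM on D02, and 2.69 FPKM on A11 and 2.51 FPKM on D11. For number 04 they were close, at 2.52 FPKM on A04 and 2.53 FPKM on D04. For number 03 the median kept the side of the mean, at 3.12 FPKM on A03 and 2.65 FPKM on D03. Without the genes at FPKM 1000 or more the pairs that passed fell to 8, 4 on each side, and the ratio of number 11 turned to A at a log2 of -0.10. Number 02 then lost its call at a ratio of 1.01 (limma adjusted p = 0.323), and the log2 ratio of number 03 was -0.20. Numbers 02 to 05 are those with exchanged segments in the A subgenome. With all genes kept, the pool of 02 and 03 had a per-gene ratio of 0.955 (limma adjusted p = 2.7e-05). That of 04 and 05 was 0.945 (limma adjusted p = 1.1e-05), so A was higher in both pools.

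**Figure D4:**
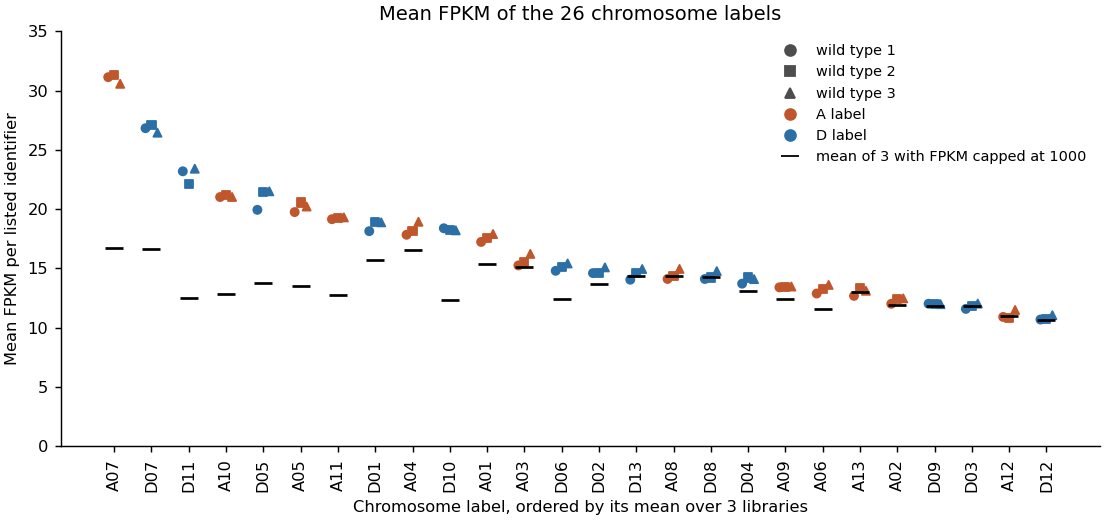
Mean FPKM per listed gene of each of the 26 chromosome labels, in each of the 3 wild-type libraries, ordered by the mean, with A labels in orange and D labels in blue. Black bars give the mean with each gene capped at FPKM 1000. A07 and D07 have the highest means in both, with A04 overlapping them when capped, while D11, at 22.9 uncapped, falls to 12.5 FPKM when capped.

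The fraction of expressed genes showed a direction that the sums did not. On all 13 numbers the mean percentage of listed genes at FPKM 1 or more was higher on the A than on the D label, and in 9 of them this held in every library. In 7 of 13 pairs (53.8%) the ratio passed the threshold, each with A higher. The differences were small. The largest was that of number 10, with 65.6%, 66.9% and 65.8% on A10 and 62.3%, 63.5% and 62.6% on D10 (limma adjusted p = 2.8e-05). Number 03 followed, with 67.5%, 68.5% and 69.2% on A03 and 65.2%, 65.3% and 65.5% on D03 (limma adjusted p = 0.00042). The 3 libraries of the A label and of the D label did not overlap in either pair. They also did not overlap in numbers 05, 06, 07, 09 and 11, and did in the remaining numbers. Of these, number 09 missed the threshold (limma adjusted p = 0.135). On number 11 the values were 65.1% ± 0.2 and 63.3% ± 0.5 (SD, n = 3, limma adjusted p = 0.00056). Number 12 had the smallest difference, 66.1% ± 0.5 against 66.0% ± 0.2 (SD, n = 3), less than the spread between libraries (limma adjusted p = 0.616).

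Labels differed less in this fraction than in mean FPKM, relative to the spread between libraries. The median FPKM also separated them weakly, with an SD over labels of 0.18 FPKM against a median SD between libraries of 0.051 FPKM. In its order 22 of 25 neighbours overlapped. For the fraction at FPKM 1, label means ran from 62.8% on D10, 62.9% on D04 and 63.3% on D11 to 68.4% on A03, 67.5% on A07 and 67.2% on A08. All 25 neighbours in this order overlapped between libraries, and the SD over labels of 1.39 percentage points stood against a median SD between libraries of 0.47. The count of pairs past the threshold varied with the library left out, with 9 without wild type 1, 6 without wild type 2 and 5 without wild type 3, each with A higher. Number 04 lost its call without wild type 3, and number 07 without wild type 2 or 3. Limma gave every pair the same error without wild type 2 or 3, but not in the main fit or without wild type 1. For number 07 the log2 ratio was -0.021 without wild type 3 and -0.022 in the main fit, with an SE of 0.0083 against 0.0058. Every listed gene was above 0 in at least 1 of the 6 libraries, so the denominator may itself depend on the virescent libraries. With the genes above 0 in a wild-type library as the denominator, a choice made after the data were seen, 8 pairs passed, each with A higher. With the highest identifier number of each label in its place, 11 pairs passed, 10 with A higher and number 04 with D higher. In that respect the labels also differed, since 87.9% of the identifier numbers were listed for A and 86.5% for D, and D10 had the lowest value at 83.6%.

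**Figure D5:**
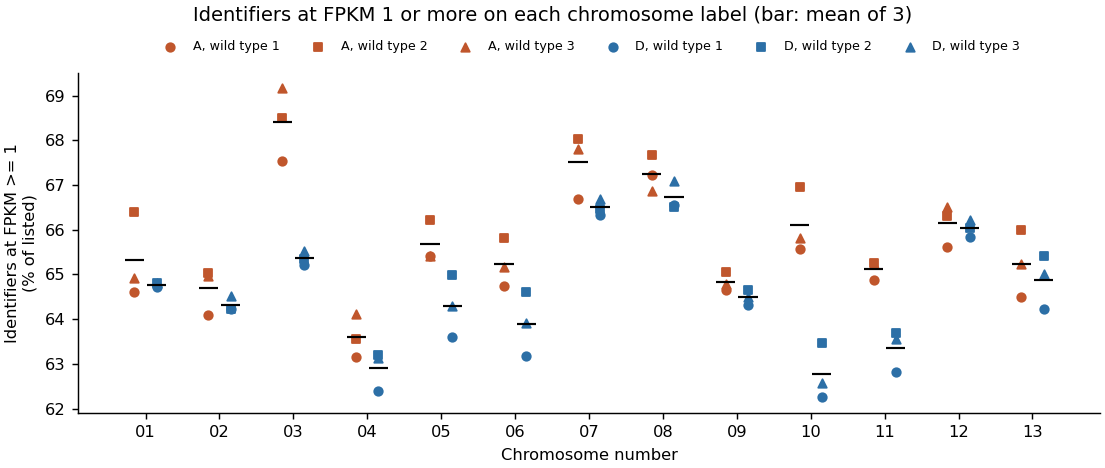
Percentage of listed genes at FPKM 1 or more on the A label (orange) and the D label (blue) of each chromosome number, in each of the 3 wild-type libraries. Bars are means of 3, and the axis does not start at 0. The A mean lies above the D mean for all 13 numbers, most widely for numbers 10 and 03.

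At higher thresholds the direction was less uniform. At FPKM 10 the A label had the higher mean percentage in 11 of 13 numbers, and 6 pairs (46.2%) passed the threshold, 5 with A higher and number 07 with D higher. The widest was number 03, at 24.3% ± 0.3 on A03 (SD, n = 3) against 21.7% to 22.4% on D03 (limma adjusted p = 0.0022). Number 07 went the other way, with 22.2%, 21.8% and 22.6% on A07 and 22.9%, 22.6% and 23.4% on D07 (limma adjusted p = 0.0075). Number 02 had a larger D to A ratio, 1.05 against 1.03 for number 07, but missed the threshold (limma adjusted p = 0.069). Leaving out wild type 1 or wild type 3 reduced these calls to 3 each, none with D higher, and leaving out wild type 2 raised them to 9. Without wild type 2 limma gave every pair the same error, whereas without wild type 1 or 3 the errors differed between pairs. The counts thus differ in the error used as well as in the library left out. At FPKM 100 the A label had the higher mean in 9 of 13 numbers. A04 had the highest mean percentage at this level, 2.85% ± 0.16, and D12 the lowest, 1.44% ± 0.09 (SD, n = 3), but A04 overlapped with D01 and D12 with A12 between libraries.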

How the data were processed

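The authors deposited 1 table of FPKM values with 2 decimals, per the file headers, with 65126 genes and 6 libraries. The aligner, counting tool, annotation and cotton assembly were not given in the sources used here. Per the submitters' processing notes the build is mm10, a mouse build, which cannot have given cotton identifiers. The handling of reads that fit both an A and a D copy is not described. At FPKM 1 or more, 149 genes shared all 3 wild-type values with another gene, in 61 sets of which 17 held A and D genes. No gene was at 0 in all 6 libraries (0 rows), and this was the only use of the virescent columns. Depth is unknown, so no counting interval is given. The most frequent ratio of low values to wild type 1 was 1.06 in wild type 2 and 1.00 in wild type 3, in 2.07% and 2.23% of the genes, too few to set the relative depth.

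Genes were grouped by the label in their identifier. Ratios of D to A within libraries were fitted with limma 3.58.1 in R 4.3.3 (intercept only, empirical Bayes, no trend) over the 13 numbers, with Benjamini-Hochberg adjustment. The fit was also run on simulated ratios, drawn independently for each number and library. Its outcome is not given here and is not used as support for the calls. Single values used an exact two-sided permutation test within libraries. The 2 most abundant genes of each subgenome were named. The comparison and its lists were chosen with earlier results of these data known. The lists of leaf genes and cell type markers had 0 members, since no identifier matched a gene name, and were not used.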

Additional observations from a re-analysis of the deposited data

How the results depend on the processing

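The means of the whole-subgenome values kept their sign over the alternatives tried, but for mean log2(FPKM + 1) among genes with a mean FPKM of at least 1 the difference of -0.0033 varied in sign between libraries, and the difference of 14 genes at FPKM 100 after rescaling had an SD of 14. The D share of the summed FPKM was 50.8% to 51.1% under filters and caps and 51.0% to 51.1% with a library left out. The deficit of D in mean log2(FPKM + 1) was -0.067 at a pseudocount of 0.1. A fit with A and D as separate samples (no replicate block) called 11 pairs for the sum, 10 per gene and 5 at FPKM 1; libraries within a genotype are numbered only, and no comparison between genotypes was made. Leaving out the most abundant gene of each label, chosen after seeing the data, left 2 pairs with A higher in the sum. The highest identifier number as denominator gave 11 pairs at FPKM 1, 1 with D higher, and FPKM 10 in place of 1 gave 1 with D higher. With a library left out, calls at FPKM 1 ranged from 5 to 9, and at FPKM 10 from 3 to 9 (0 to 2 with D higher, 3 to 7 with A higher). Some of these fits gave every pair the same error and others did not, so their counts differ in more than the library. At FPKM 10, rescaling to a sum of 1000000 gave 2 with D higher.

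Log2 ratios of single numbers reversed as follows; beyond the genes left out or the changed denominator, the cause was not tested. Per gene in place of the sum they were -0.38 for 04, 0.054 for 05, -0.010 for 08 and -0.035 for 12. Without genes at FPKM 1000 the sum gave 0.11 for 07, 0.029 for 10 and -0.018 for 11, and per gene -0.017 for 05, 0.055 for 07 and -0.10 for 11. Capped at FPKM 1000 the sum gave 0.052 for 07 and 0.066 for 10, and per gene -0.030 for 11. Without the most abundant gene of each label 07 was 0.084 (sum) and 0.025 (per gene). D02 over A03 was -0.084 per gene. At FPKM 10 in place of 1, 07 was 0.046, and with the highest number as denominator 04 was 0.012. The other reversals stayed short of the threshold on both sides. With a library left out, 05 ran in the sum from -0.025 to 0.012 (without wild type 1) and 12 from -0.0014 (without wild type 2) to 0.016, and at FPKM 10 number 05 was 0.00062 without wild type 2. In the fraction at FPKM 1, 02 was 0.076 at FPKM 10 in place of 1, and 09 was 0.0016 with the highest number as denominator. Depth is unknown and its limits cannot be given.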

Other observations

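Genes were also followed along the numbers of their identifiers, which are only assumed to run along the chromosome, in 10 equal stretches per label. The percentage of listed genes at FPKM 1 or more ran from 64.4% to 67.3% over the stretches of the A labels and from 63.3% to 66.9% over those of the D labels (means of 3 libraries). The outer stretches exceeded the middle ones on 7 of 13 A labels and on 5 of 13 D labels, with a median difference of 0.26 percentage points in A and -2.85 in D. The last stretch of the A labels held 15.6% to 16.5% of the A sum over the libraries, and the fifth stretch of the D labels 14.3% to 15.4% of the D sum. The former holds Gh_A07G2172, with 5.29% of the A sum, and the latter Gh_D11G1671, with 4.43% of the D sum. These are descriptions without a test.

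Between libraries, A and D genes were about equally variable. Of the 18639 A genes with a mean FPKM of at least 1, between 1.09% and 3.64% differed at least 2-fold on the log2(FPKM + 1) scale between a given pair of wild-type libraries, and of the 19331 D genes between 1.39% and 3.69%. FPKM 1 was reached in all 3 libraries by 62.4% of listed A genes and 61.2% of listed D genes, and in none by 30.7% and 31.9%.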
